A study of Homo sapiens with 6 samples.

Results

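PTGS2, CXCL8, LIF and CD14 are inflammatory genes whose transcripts were measured in RKO cells, an established human colorectal carcinoma line with a wild-type genotype label, after 48 h of culture in fasting medium (1% serum, 1 g/L glucose; 3 libraries) or in control medium (10% serum, 4.5 g/L glucose; 3 libraries). The 4 genes were taken by name from a deposited table of 3511 genes, and they were chosen by their difference in this same contrast, with its results known. Their own differences are therefore given as a description, with no test. The table holds only genes that the authors had called different between the media, 11.8% of the 29845 genes they tested, so a gene outside it can be described only as not listed. Every listed gene had fasting and control libraries that did not overlap (100% of the table), and nothing is read from the absence of overlap among the 4 genes. The labels do not state that the libraries of a medium came from separate cultures, so each p-value below reflects only how far these 3 libraries per medium scatter, and that scatter may be technical.

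PTGS2 encodes cyclooxygenase-2, the inducible enzyme that converts arachidonic acid to the precursor of prostaglandins. CXCL8 encodes interleukin-8, a chemokine that draws neutrophils through the receptors CXCR1 and CXCR2. LIF is a cytokine of the interleukin-6 family that signals through LIFR and IL6ST (gp130) to STAT3, and CD14 is a co-receptor that hands bacterial lipopolysaccharide to LY96 (MD-2) and TLR4. In colorectal tumours prostaglandins and interleukin-8 are known products of the cancer cells as well as of the stroma, whereas CD14 is best known from monocytes and macrophages. Transcription of PTGS2 and CXCL8 is driven in many cell types by NF-kappaB, C/EBP and AP-1 or CREB family factors, and their messages carry AU-rich elements that speed decay.

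The promoters are shown because these genes are known for the factor sites they hold. RefSeq (GRCh38.p14) gave an entry for 3 of the 4 genes, PTGS2, CXCL8 and CD14. The 250 bases before each annotated start are printed on the strand of the gene, with matches to the searched motifs in capitals.
PTGS2, chr1:186680424-186680673, minus strand: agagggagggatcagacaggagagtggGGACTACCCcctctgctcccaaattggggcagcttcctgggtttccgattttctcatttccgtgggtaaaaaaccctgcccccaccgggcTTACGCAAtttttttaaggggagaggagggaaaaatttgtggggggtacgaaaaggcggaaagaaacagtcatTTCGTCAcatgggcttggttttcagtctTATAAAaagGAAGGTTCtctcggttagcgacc
CXCL8, chr4:73740319-73740568, plus strand: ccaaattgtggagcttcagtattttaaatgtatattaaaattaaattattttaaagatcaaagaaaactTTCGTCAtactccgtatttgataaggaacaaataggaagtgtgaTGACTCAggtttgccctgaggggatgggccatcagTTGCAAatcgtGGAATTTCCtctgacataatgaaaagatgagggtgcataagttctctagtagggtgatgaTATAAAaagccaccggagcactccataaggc
CD14, chr5:140633176-140633425, minus strand: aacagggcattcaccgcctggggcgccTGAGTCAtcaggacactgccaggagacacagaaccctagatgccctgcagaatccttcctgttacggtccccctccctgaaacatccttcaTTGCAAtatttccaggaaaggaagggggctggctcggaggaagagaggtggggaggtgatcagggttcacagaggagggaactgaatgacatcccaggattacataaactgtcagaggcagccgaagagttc

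The PTGS2 promoter held a match to the NF-kappaB letters GGANTNNCC from -223 to -215, counted from the base before the start. It also held the C/EBP-ATF octamer TTGCNNAA on the reverse strand from -133 to -126, the CRE-like heptamer TTCGTCA from -60 to -54, a TATA box from -32 to -27 and the heat shock repeat GAANNTTC from -23 to -16. The CXCL8 promoter held the CRE-like heptamer from -181 to -175, the AP-1 heptamer TGANTCA from -137 to -131, the C/EBP core TTGCAA from -102 to -97, the NF-kappaB letters from -91 to -83 and a TATA box from -31 to -26. PTGS2 and CXCL8 thus shared the NF-kappaB, CRE-like and TATA letters, the NF-kappaB and CRE-like ones at different distances from the start. The CD14 promoter held the AP-1 heptamer from -223 to -217 and the C/EBP core from -132 to -127, with neither NF-kappaB nor TATA letters in this window.

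**Figure D1:**
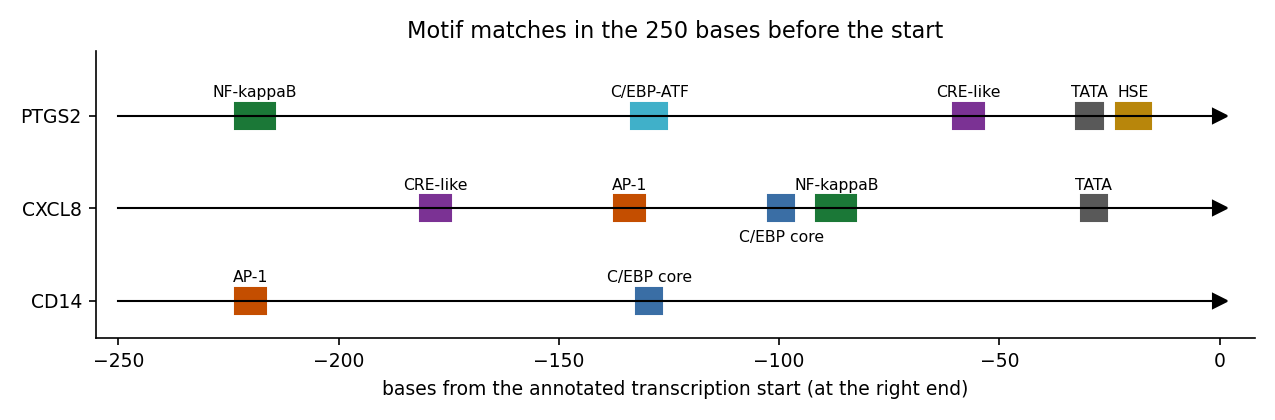
Motif matches in the 250 bases before the annotated start of PTGS2, CXCL8 and CD14. The horizontal axis is the distance from the start in bases and each coloured box is a match; PTGS2 and CXCL8 each show 5 matches and CD14 shows 2.

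Both strands were searched for 9 motifs, except TATAAA, which was searched on the gene's strand, and the NF-kappaB and CRE-like letters were picked with the known PTGS2 and CXCL8 sites in view. Among all 27305 RefSeq promoters of the same length, 11.98% held the NF-kappaB letters, 6.60% the AP-1 heptamer, 0.853% the CRE-like heptamer, 4.78% the C/EBP core, 9.13% the C/EBP-ATF octamer, 5.85% the heat shock repeat and 7.18% the TATA box. For the 1236 promoters of listed genes with a higher mean in fasting medium, the same shares were 16.3%, 6.39%, 0.890%, 2.83%, 4.94%, 5.42% and 6.15%. The full cyclic AMP element TGACGTCA, found in 1.77% of all promoters and 3.56% of those of the higher genes, and the antioxidant element TGACNNNGC, found in 11.03% and 13.5%, had no match in the 3 windows. A match describes letters and not a bound site.

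The depth behind the values is known only for the listed genes, which took 4187326 to 5071791 reads per fasting library and 4017618 to 5602177 reads per control library. Fasting replicate 3 stood apart from the other fasting libraries. The chi-square per gene, which is 1 for sampling noise alone, was 55.4 and 55.1 between fasting replicate 3 and fasting replicates 1 and 2, against 1.85 between fasting replicates 1 and 2 and 2.10 to 6.44 between control libraries. Its deviation ran with transcript length, with a Spearman correlation of -0.722 across 2886 genes. Genes are not independent replicates, so this value describes the library, and the results below are also given without it where it matters. Values are the authors' normalized read counts, in which 1 unit is a read divided by the size factor of its library.

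PTGS2 (ENSG00000073756) was near the bottom of the table in control medium and near its middle in fasting medium. It had 397, 416 and 305 normalized counts in the 3 fasting libraries, against 11.8, 7.10 and 12.4 in the control libraries. The lowest fasting library lay 24.7 times above the highest control library. The means were 373 ± 59.4 in fasting medium and 10.4 ± 2.89 in control medium (SD, n = 3 each), a ratio of 35.8, and the log2 fold change on log2(normalized count + 1) was 5.05 (SE 0.27). The authors' deposited table gives PTGS2 a log2 fold change of 5.16, which is the log2 ratio of the group means with no added count. In RNA from a whole culture, more cells that express a gene and more RNA per cell cannot be told apart.

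The control level of PTGS2 rested on few reads, 39 over the control libraries against 933 over the fasting libraries. The ratio from summed reads was 36.8, with a 95% exact interval of 26.7 to 52.0 that covers counting error only. By log2 fold change PTGS2 ranked 9 among the 3511 listed genes, and 48.4% of listed genes lay below it by level in fasting medium, against 7.32% in control medium. The coefficient of variation was 15.9% between fasting libraries, where counting alone gives 5.74%, and 27.7% between control libraries, where counting alone gives 27.8%. Fasting replicate 3 was the low library, 0.41 log2 units below the average of fasting replicates 1 and 2, while the 200 listed genes nearest in transcript length had a median of -0.16 in the same difference.

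CXCL8 (ENSG00000169429) was also a low gene in control medium and was higher in each fasting library. It had 83.8, 84.7 and 117 normalized counts in the fasting libraries, against 2.96, 7.10 and 7.27 in the control libraries. Fasting replicate 3 was the high library here, and control replicate 1 the low one, with 3 reads. The means were 95.1 ± 18.8 in fasting medium and 5.78 ± 2.44 in control medium (SD, n = 3 each), a ratio of 16.5, and the log2 fold change was 3.89 (SE 0.38). The authors' deposited table gives CXCL8 a log2 fold change of 4.04.

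Reads of CXCL8 numbered 232 in the fasting libraries and 23 in the control libraries, and the ratio from summed reads was 15.5, with a counting interval of 10.1 to 24.9. The lowest fasting library lay 11.5 times above the highest control library. CXCL8 in fasting replicate 3 lay 0.47 log2 units above the average of fasting replicates 1 and 2. The 200 genes nearest in transcript length had a median of 0.44 in the same difference. For CD14 this difference was 0.04, against a median of 0.37 in its 200 nearest genes, and for LIF 0.09 against -0.06. Without fasting replicate 3 the log2 fold change of CXCL8 was 3.73, and that of PTGS2, a longer transcript, was 5.19.

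LIF (ENSG00000128342) did not share the low baseline named in the rule that grouped these genes. It had 2366, 2278 and 2468 normalized counts in the fasting libraries, against 1306, 1383 and 1552 in the control libraries. It was thus among the more abundant listed genes in both media, with 89.3% of listed genes below it in fasting medium and 82.5% in control medium. The means were 2371 ± 95.1 in fasting medium and 1414 ± 126 in control medium (SD, n = 3 each), a ratio of 1.68, and the log2 fold change was 0.75 (SE 0.08). The authors' deposited table gives LIF the same log2 fold change to 2 decimals.

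LIF had 5837 reads in the fasting libraries and 5406 in the control libraries, which places the ratio from summed reads at 1.66 with a counting interval of 1.60 to 1.72. Its coefficient of variation of 4.01% between fasting libraries and 8.93% between control libraries exceeded the counting error of 2.28% and 2.39%. By log2 fold change it ranked 1335 of 3511, close to the median of 0.53 over all listed genes and below the median of 1.04 over the listed genes with a higher mean in fasting medium. On the log2 scale, scaling moved LIF, PTGS2 and CXCL8 by about the same amount, which is large beside the small difference of LIF. In edgeR the log2 fold change of LIF was 0.75 with the authors' size factors. With libraries scaled by their total reads in listed genes its log2 fold change was 0.27, and with relative log expression factors computed on listed genes it was 0.94. PTGS2 had 5.17 with the authors' size factors, 4.70 with total-read scaling and 5.37 with relative log expression factors, and CXCL8 had 3.94, 3.47 and 4.14 in the same order. Total-read scaling moved the median of all listed genes by -0.47 log2 units and the relative log expression factors moved it by 0.20.

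CD14 (ENSG00000170458) was the least abundant of the 4 genes in both media. It had 7.62, 8.37 and 8.25 normalized counts in the fasting libraries, from 6, 8 and 6 reads, against 0.986, 0.710 and 0.727 in the control libraries, from 1 read in each. The fasting libraries lay close together and so did the control libraries. The spread was smaller than counting allows on average, since the coefficient of variation was 5.00% in fasting medium and 19.2% in control medium, where counting alone gives 39.0% and 100%. The small SE of the log2 fold change of CD14, 2.33 (SE 0.08), therefore understates its error.

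The precision of CD14 was set by its 20 reads in fasting medium (95% exact Poisson interval 12.2 to 30.9) and 3 reads in control medium (0.619 to 8.77). The ratio from summed reads was 10.2, with a counting interval of 3.04 to 53.8. The means were 8.08 ± 0.404 in fasting medium and 0.808 ± 0.155 in control medium (SD, n = 3 each). The authors' deposited table gives CD14 a log2 fold change of 3.32, computed without the added count of 1. At most 3 control reads in all were found for 90 listed genes, 2.56% of the table, and 41 of these had none.

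**Figure D2:**
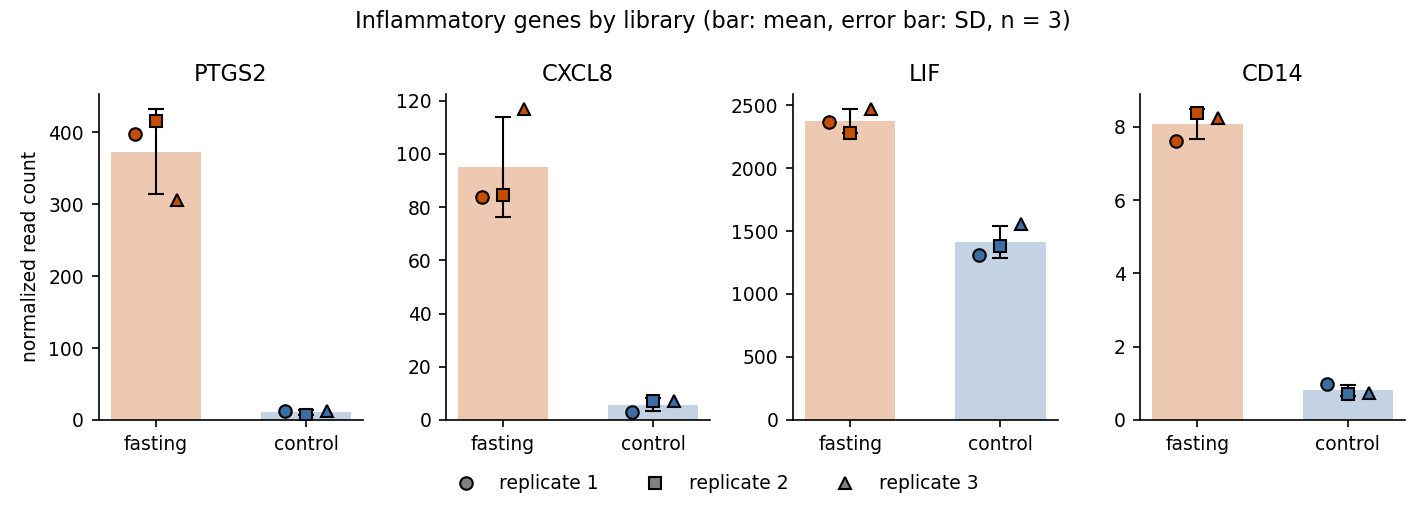
Normalized read counts of PTGS2, CXCL8, LIF and CD14 in each fasting library (left) and control library (right). Bars are means, error bars SD and markers the 3 libraries of each medium; each panel has its own vertical axis from 0, and LIF alone is high in both media (2371 in fasting medium, 1414 in control medium).

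Per kilobase of transcript the order of the 4 levels was LIF, PTGS2, CXCL8, CD14 in fasting medium, with means of 597, 82.6, 55.8 and 4.28 normalized counts per kilobase. In control medium it was LIF, CXCL8, PTGS2, CD14, with means of 356, 3.39, 2.31 and 0.428. PTGS2 and CXCL8 were neighbours in both orders and overlapped in both. PTGS2 had 88.0, 92.2 and 67.6 per kilobase in the fasting libraries, and CXCL8 had 49.1, 49.7 and 68.6 in the same libraries. In the control libraries PTGS2 had 2.62, 1.57 and 2.74 per kilobase, and CXCL8 had 1.74, 4.17 and 4.26. PTGS2 was thus above CXCL8 in fasting replicates 1 and 2 and in control replicate 1, and below it in the other 3 libraries.

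The distance between LIF and the other ligand and enzyme genes was narrower in fasting medium. This restates the fold changes given above, by which the genes were chosen, and is no separate result. LIF lay 7.23-fold above PTGS2 per kilobase in fasting medium, against 154-fold in control medium, and 10.7-fold above CXCL8 in fasting medium, against 105-fold in control medium. The ratio of LIF to CD14 was 139 in fasting medium and 832 in control medium, where CD14 had 3 reads in all. LIF was the most abundant of the 4 genes in every library of both media.

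**Figure D3:**
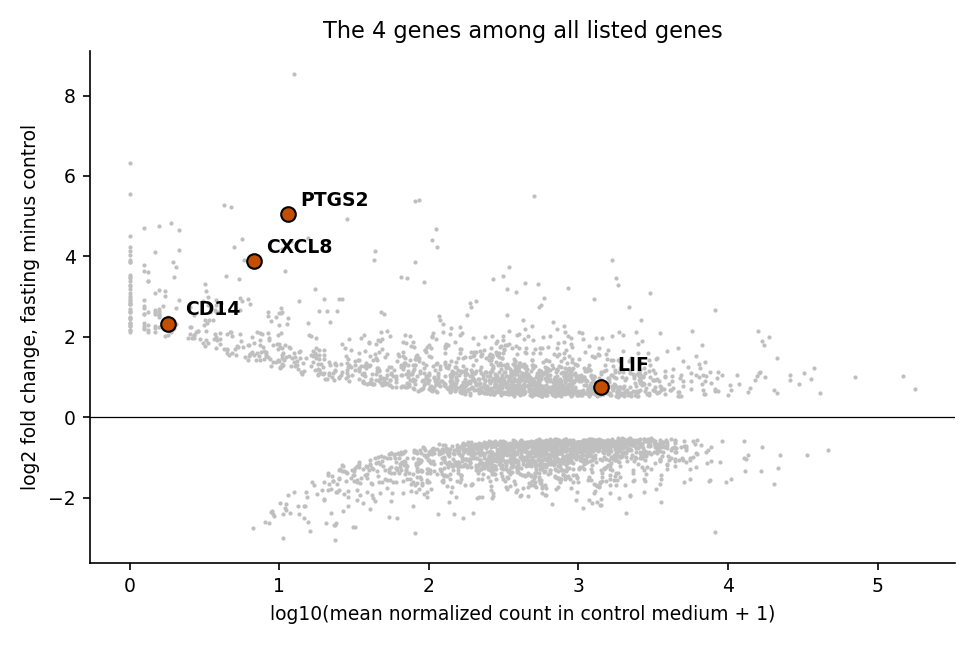
Log2 fold change (vertical axis, fasting minus control) against log10 of the mean normalized count in control medium plus 1 (horizontal axis) for all 3511 listed genes (grey), with the 4 inflammatory genes in orange. PTGS2, CXCL8 and CD14 lie at the left edge with log2 fold changes of 5.05, 3.89 and 2.33, while LIF lies to the right at 0.75.

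The other genes of the 4 pathways, those of factors known to act on them, and a set of stress genes were described from 10 lists of 243 genes in all. Calls are from limma on log2(normalized count + 1), at a Benjamini-Hochberg adjusted p under 0.05 counted over the 29845 genes the authors tested. Over the whole table this called 49.7% of listed genes higher in fasting medium and 44.6% lower, which is 5.85% and 5.25% of the genes tested. Of the 243 list genes 65 were listed (26.7%), and all 65 were called, 55 higher and 10 lower. By list, the listed share ran from 10.3% of the other chemokine genes to 83.3% of the stress genes. Of all genes tested, 11.8% were listed. The higher calls were 84.6% of the listed list genes and 22.6% of all list genes, and the lower calls 4.12% of all list genes. The median log2 fold change of the 65 was 1.42, against 0.53 over all listed genes. These shares describe the lists, which were drawn up with earlier results known, and the authors' own selection means that a listed gene had already been called by them.

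Around PTGS2, 3 of 28 other prostaglandin pathway genes were listed (10.7%, against 11.8% of all genes tested), 2 higher and 1 lower. PTGES3, a prostaglandin E synthase better known as the HSP90 co-chaperone p23, had 12164 ± 2292 normalized counts in fasting medium and 5647 ± 70.1 in control medium (SD, n = 3 each; log2 fold change 1.09, limma adjusted p = 0.00110). PTGR1, which reduces prostaglandin metabolites, averaged 1496 in fasting medium and 970 in control medium (0.61, adjusted p = 0.0145), a call that was lost on leaving out any 1 control library (adjusted p = 0.0572 to 0.0750) and with total-read scaling (edgeR adjusted p = 1). TBXA2R, the thromboxane receptor, was lower, with 100.4 in fasting medium and 219 in control medium (-1.13, adjusted p = 0.00257). Neither PTGS1, the constitutive cyclooxygenase, nor PTGES, the inducible microsomal synthase, was listed.

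Around CXCL8, 3 of 29 other chemokine and chemokine receptor genes were listed (10.3%, against 11.8% of all genes tested), and all 3 were higher. They were the CXC ligands CXCL1, CXCL2 and CXCL3, which like CXCL8 act on CXCR2. CXCL3 had 55.9, 54.4 and 82.5 normalized counts in the fasting libraries, against 20.7, 13.5 and 11.6 in the control libraries (log2 fold change 2.02, limma adjusted p = 0.00173). CXCL2 had 20.3, 20.9 and 33.0 in the fasting libraries, against 8.88, 11.4 and 7.99 in the control libraries (1.28, adjusted p = 0.0140). CXCL1 had 8.89, 12.6 and 20.6 in the fasting libraries, against 3.94, 2.13 and 4.36 in the control libraries, from 34 and 13 reads in all (1.71, adjusted p = 0.0190).

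As with CXCL8, fasting replicate 3 was the high library for each of the 3 ligands. All 3 stayed called without it, whereas the call for CXCL1 was lost without fasting replicate 2 or any 1 control library (adjusted p = 0.0511 to 0.0817) and that for CXCL2 without control replicate 1 or 3 (0.0647 and 0.0756). With total-read scaling CXCL3 alone of the 3 was still called. CXCL1, CXCL2 and CXCL3 are similar in sequence, so how reads were shared among them is uncertain. In the deposited domain annotation they were also the only other listed genes with the CXC chemokine domain of CXCL8. Neither CXCR1 nor CXCR2 was listed.

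**Figure D4:**
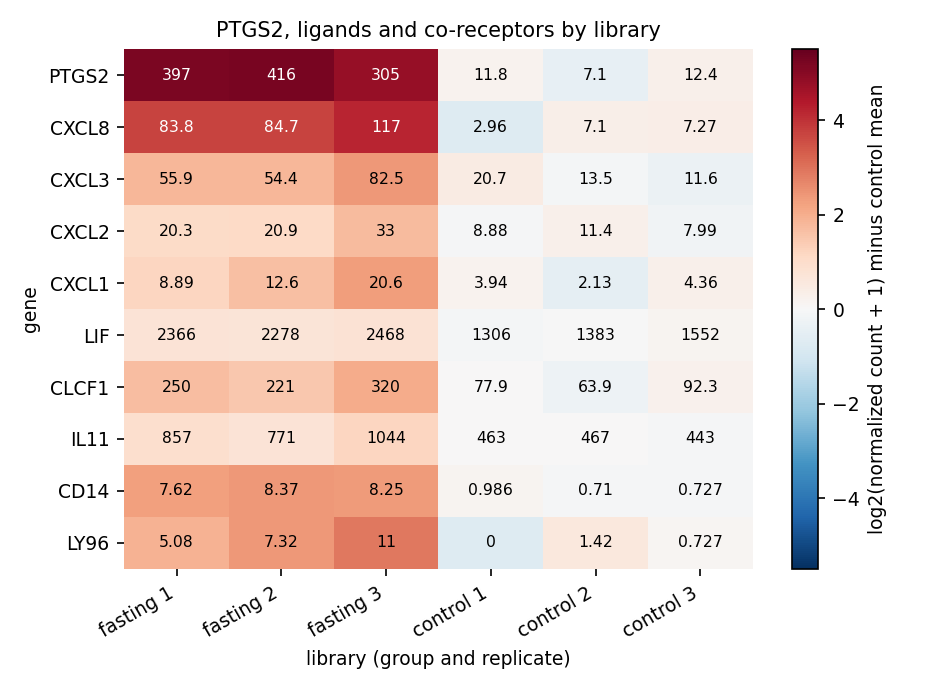
Normalized counts (numbers in cells) of PTGS2, the CXC ligands, the interleukin-6 family ligands LIF, CLCF1 and IL11, and the co-receptors CD14 and LY96 in each library, fasting libraries on the left. Colour gives log2(normalized count + 1) minus the control mean of the gene; PTGS2 reaches the deepest red and LIF the palest.

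Around LIF, 7 of 24 other genes of the interleukin-6 family and STAT3 signalling were listed (29.2%, against 11.8% of all genes tested), 5 higher and 2 lower. The family ligands IL11 and CLCF1 were higher. IL11 had 890 ± 139 normalized counts in fasting medium and 458 ± 12.7 in control medium (SD, n = 3 each; log2 fold change 0.95, limma adjusted p = 0.00153). CLCF1 averaged 264 in fasting medium and 78.1 in control medium (1.74, adjusted p = 7.13e-04). LIF, IL11 and CLCF1 were the listed genes that carried the four-helical cytokine-like core term of the domain annotation.

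IL6ST, the signalling receptor shared by these ligands, had 2890, 2931 and 1730 normalized counts in the fasting libraries, against 1236, 1325 and 1217 in the control libraries (log2 fold change 0.96, limma adjusted p = 0.0139). Fasting replicate 3 was the low library, and the call was lost without fasting replicate 1 or 2 or control replicate 1 or 3 (adjusted p = 0.0551 to 0.0741) and with total-read scaling (adjusted p = 0.467). LIFR was not listed. SOCS3, the feedback inhibitor induced by STAT3, averaged 499 in fasting medium and 174 in control medium (1.51, adjusted p = 2.62e-04), and the kinase gene PIM1 averaged 394 in fasting medium and 218 in control medium (0.85, adjusted p = 0.00138; 0.0762 with total-read scaling in edgeR). The 2 lower genes of this list encode receptor-bound kinases, and nothing is said here of the other kinases of that kind. JAK2 averaged 134 in fasting medium and 249.5 in control medium (-0.95, adjusted p = 0.0382). TYK2 averaged 1061 in fasting medium and 1587 in control medium (-0.58, adjusted p = 0.00624). Both calls were lost with relative log expression factors (edgeR adjusted p = 0.0991 for JAK2 and 0.0737 for TYK2), and that for JAK2 also on leaving out 1 of 4 libraries (0.0559 to 0.150).

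Around CD14, 5 of 27 other genes of Toll-like receptor signalling were listed (18.5%, against 11.8% of all genes tested), 4 higher and 1 lower. LY96, which encodes the lipopolysaccharide-binding partner MD-2, had 5.08, 7.32 and 11 normalized counts in the fasting libraries, against 0, 1.42 and 0.727 in the control libraries (limma adjusted p = 0.00812). This rested on 19 reads in fasting medium and 3 in control medium, a ratio of 9.73 with a counting interval of 2.87 to 51.4. TLR4, the receptor that CD14 and LY96 serve, was not listed. The adaptor TICAM1 averaged 1076 in fasting medium and 672 in control medium (log2 fold change 0.67, adjusted p = 0.00303), and the kinase IRAK2 averaged 254 in fasting medium and 74.6 in control medium (1.76, adjusted p = 2.99e-04). TOLLIP, an inhibitor of the pathway, averaged 1855 in fasting medium and 1209 in control medium (0.61, adjusted p = 0.0103). TAB1, a partner of the kinase TAK1, was lower, with 448 in fasting medium and 676 in control medium (-0.59, adjusted p = 0.00680). The calls for TICAM1 and TOLLIP were lost with total-read scaling (edgeR adjusted p = 0.410 and 1) and that for TAB1 with relative log expression factors (0.0590). The call for TOLLIP was also lost without control replicate 1 or 2 (limma adjusted p = 0.0570 to 0.0636).

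CD14 was also set beside 17 other myeloid markers, since it is best known from monocytes. Of these, 2 were listed (11.8%, no more than the 11.8% of all genes tested) and 15 were not, among them PTPRC, LYZ and CD68. ITGAX, an integrin chain of dendritic cells and macrophages, had 771 ± 65.7 normalized counts in fasting medium and 197 ± 14.3 in control medium (SD, n = 3 each; log2 fold change 1.96, limma adjusted p = 4.08e-05). MRC1, the macrophage mannose receptor, had 3.81, 5.23 and 2.75 in the fasting libraries and no read in the control libraries, 10 reads in all (adjusted p = 0.00397; 0.0513 with total-read scaling in edgeR, which ends the call). The summed level of the listed myeloid markers other than CD14 was 775 in fasting medium and 197 in control medium, nearly all of it ITGAX. No fibroblast marker of 12 was listed. Of 15 epithelial and colon markers KRT18 alone was listed (6.67%), at 2460 ± 816 in fasting medium and 723 ± 58.1 in control medium (1.72, adjusted p = 0.00108). Levels of unlisted markers are not known here, so the labelled cell type could not be checked against them, and the part of other cell types in the CD14 values was not tested.

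Among 32 other cytokine genes 5 were listed (15.6%, against 11.8% of all genes tested), 4 higher and 1 lower. HBEGF, an EGF receptor ligand, averaged 641 in fasting medium and 222 in control medium (log2 fold change 1.52, limma adjusted p = 1.10e-04), and TNFSF9, the ligand of 4-1BB, averaged 755 in fasting medium and 262 in control medium (1.51, adjusted p = 5.85e-04). TSLP, an epithelial cytokine, had 71.1, 106 and 131 normalized counts in the fasting libraries, against 12.8, 14.9 and 10.2 in the control libraries (2.90, adjusted p = 2.91e-04). INHBA, the activin A chain, rested on 21 reads in fasting medium and 2 in control medium, a ratio of 16.1 with a counting interval of 3.94 to 142 (adjusted p = 0.00719). IL7 was lower, with 52.9 in fasting medium and 126 in control medium (-1.26, adjusted p = 0.00410). TNF and IL1B, classical inducers of PTGS2 and CXCL8, were not listed, nor was IL6.

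All 10 listed genes among 30 NF-kappaB subunits, inhibitors and targets were called higher in fasting medium, with a median log2 fold change of 1.099. The listed share was 33.3%, against 11.8% of all genes tested, and 49.7% of all listed genes were called higher. NFKBIZ, a nuclear co-factor needed for a subset of NF-kappaB targets, had 1215 ± 165 normalized counts in fasting medium and 343 ± 10.5 in control medium (SD, n = 3 each; 1.81, limma adjusted p = 7.34e-05). The deubiquitinase CYLD, which restrains the pathway, averaged 1490 in fasting medium and 448 in control medium (1.73, adjusted p = 4.88e-05). The kinase MAP3K14, which activates the non-canonical branch, averaged 239 in fasting medium and 85.1 in control medium (1.48, adjusted p = 2.49e-04), and the inhibitor TNIP1 averaged 2395 in fasting medium and 1404 in control medium (0.77, adjusted p = 5.74e-04). TRAF1, a target and adaptor, averaged 114 in fasting medium and 41.4 in control medium (1.42, adjusted p = 0.00138). The subunit genes RELA and NFKB1 were not listed. With total-read scaling 7 of the 10 were called, all higher, and TNIP1 was not (edgeR adjusted p = 0.0677). The call for TNFAIP3 was lost without fasting replicate 1 or 2 or control replicate 1 or 2 (limma adjusted p = 0.0859 to 0.142).

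Of 30 genes on a list of AP-1, ATF and C/EBP factors, which also holds EGR1 of another family, 17 were listed. That is 56.7%, against 11.8% of all genes tested. All 17 were called higher, against 49.7% of all listed genes, and their median log2 fold change was 1.59. FOS, a subunit of AP-1, had 2875 ± 338 normalized counts in fasting medium and 111 ± 7.42 in control medium (SD, n = 3 each; 4.67, limma adjusted p = 2.16e-06). ATF3, a stress-induced ATF factor, averaged 768 in fasting medium and 42.9 in control medium (4.13, adjusted p = 3.79e-06). MAFF, a small MAF protein, averaged 1541 in fasting medium and 205 in control medium (2.89, adjusted p = 1.99e-05), FOSB, another AP-1 subunit, averaged 3467 in fasting medium and 677 in control medium (2.36, adjusted p = 2.03e-05), and CEBPG, a C/EBP partner, averaged 2402 in fasting medium and 796 in control medium (1.59, adjusted p = 3.13e-05). With total-read scaling 15 of the 17 were called, all higher.

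Among 24 genes of MAP kinase signalling and ERK feedback 9 were listed (37.5%, against 11.8% of all genes tested), 6 higher and 3 lower. The phosphatases DUSP1 and DUSP5, which shut off MAP kinases, were higher. DUSP1 averaged 1338 normalized counts in fasting medium and 187 in control medium (log2 fold change 2.84, limma adjusted p = 2.50e-05), and DUSP5 averaged 4237 in fasting medium and 1552 in control medium (1.45, adjusted p = 5.90e-05). SPRY2, an inhibitor of receptor signalling to ERK, averaged 1156 in fasting medium and 330 in control medium (1.81, adjusted p = 3.90e-05). The kinase genes RPS6KA1 and MAPK9 were lower: RPS6KA1 averaged 687 in fasting medium and 1430 in control medium (-1.06, adjusted p = 2.35e-04), and MAPK9 averaged 944 in fasting medium and 1520 in control medium (-0.69, adjusted p = 7.50e-04). With total-read scaling 4 genes of this list were called higher and 3 lower, and with relative log expression factors 6 higher and 2 lower. The calls for DUSP10 (higher) and MAP3K5 (lower) were lost on leaving out 1 of 4 libraries, fasting replicate 1 or 2 or control replicate 1 or 2 for DUSP10 (limma adjusted p = 0.0522 to 0.0640) and fasting replicate 2 or any 1 control library for MAP3K5 (0.0712 to 0.138).

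AU-rich elements were counted as the pentamer ATTTA and the nonamer TTATTTATT in the longest annotated coding transcript of each gene (GENCODE 29). The 3′ UTR of PTGS2, 2562 bases long, held 22 pentamers and 1 nonamer, and 2.20% of 19069 coding genes held as many pentamers. The 3′ UTR of CXCL8, 1252 bases long, held 9 pentamers and 1 nonamer, and 14.2% of coding genes held as many pentamers. That of LIF, 3204 bases long, held 7 pentamers and 2 nonamers, and 19.8% of coding genes held as many pentamers. Per kilobase these came to 8.59 pentamers in PTGS2, 7.19 in CXCL8 and 2.19 in LIF, a density reached by 2.06%, 3.55% and 38.1% of coding genes. The median density was 1.47 per kilobase over coding genes and 2.12 over the listed genes with a higher mean in fasting medium, close to that of LIF. The 3′ UTR of CD14 was 128 bases long and held none. A nonamer was present in 8.14% of all coding genes, in 12.3% of the 1380 listed genes with a higher mean in fasting medium and in 9.39% of the 1597 with a lower mean.

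Of 16 genes of mRNA decay or AU-rich element binding (the AU-rich list), 4 were listed (25%, against 11.8% of all genes tested), 2 higher and 2 lower. The genes of the decay factors ZC3H12A (regnase-1) and ZFP36 (tristetraprolin) were higher. ZC3H12A averaged 651 normalized counts in fasting medium and 139 in control medium (log2 fold change 2.22, limma adjusted p = 1.99e-05), and ZFP36 averaged 900.4 in fasting medium and 295 in control medium (1.60, adjusted p = 1.75e-04). HNRNPD, which encodes the AU-binding protein AUF1, averaged 3323 in fasting medium and 7261 in control medium (-1.13, adjusted p = 3.03e-04). ELAVL1, which encodes the stabilising protein HuR, averaged 2321 in fasting medium and 3614 in control medium (-0.64, adjusted p = 0.00226).

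Of 12 genes of stress and RNA quality 10 were listed (83.3%, against 11.8% of all genes tested). All 10 were called higher in fasting medium, against 49.7% of all listed genes, with a median log2 fold change of 2.597. HSPA1A, an inducible HSP70 chaperone, averaged 2120 normalized counts in fasting medium and 112 in control medium (4.24), and its near-identical copy HSPA1B averaged 25172 in fasting medium and 1666 in control medium (3.91), so the share of reads between them is uncertain. The other 8 listed genes of this list belong to the lists above as well: FOS, FOSB, JUNB, EGR1 and ATF3 to the AP-1 list, IER3 to the NF-kappaB list, DUSP1 to the MAP kinase list and ZFP36 to the AU-rich list. The list is therefore not a separate group of genes. The part of cell handling or stress in the values of the 4 inflammatory genes was not tested.

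**Figure D5:**
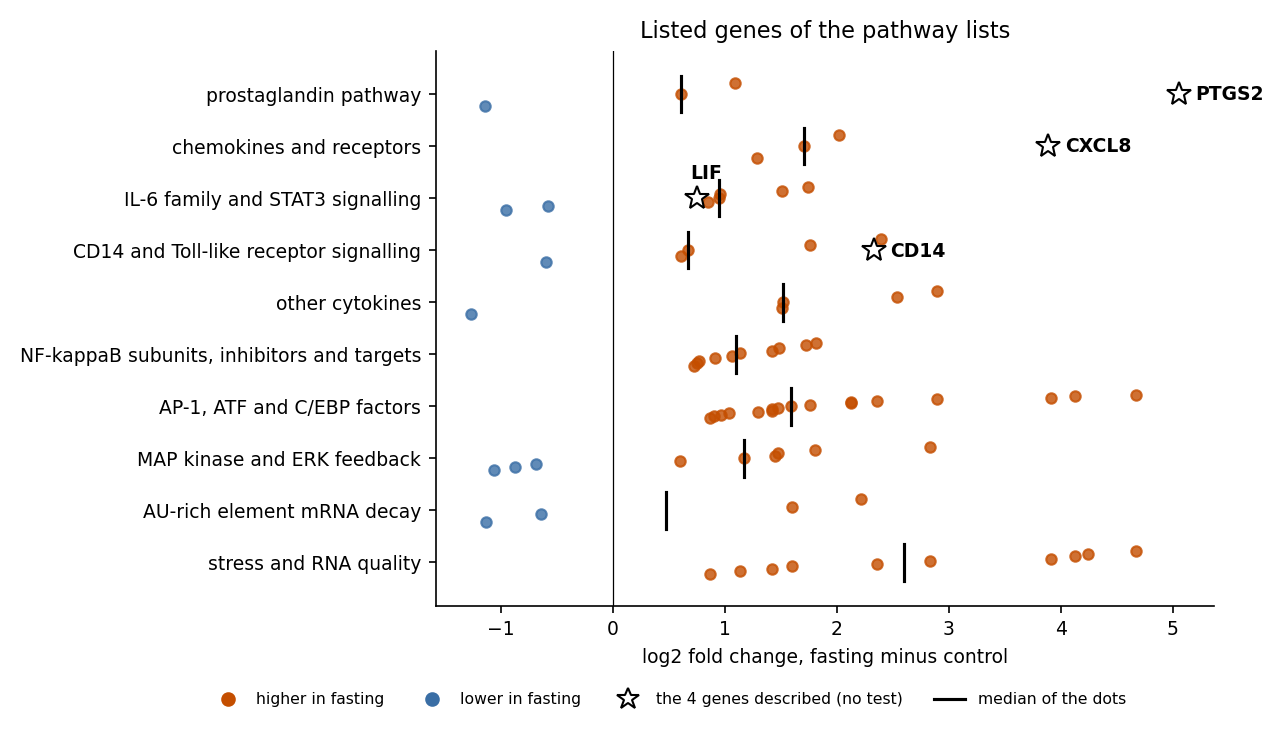
Log2 fold change (horizontal axis, fasting minus control) of every listed gene of the 10 pathway lists, one list per row. Circles are single genes called higher (orange) or lower (blue) in fasting medium, black bars list medians and stars PTGS2, CXCL8, LIF and CD14 in their own lists; PTGS2, CXCL8 and CD14 lie above their list medians of 0.61, 1.71 and 0.67, and LIF lies below its list median of 0.95.

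The genes nearest in pattern to each of the 4 were found by the root mean square distance of log2(normalized count + 1), with the control mean taken off, over the 6 libraries and among the 3423 genes that averaged 10 or more in either medium. SLC7A11, the cystine transporter, was nearest to PTGS2 (distance 0.308), with 3432 ± 881 normalized counts in fasting medium and 79.9 ± 6.54 in control medium (SD, n = 3 each), followed by CCDC194 (0.343) and NHLH1 (0.367). RASD1, a small GTPase induced by glucocorticoids, was nearest to CXCL8 (0.135), with 84.2 in fasting medium and 4.81 in control medium, followed by HSPA1B (0.302) and DDIT3 (0.363). The nearest to LIF were PPME1 (0.0327), MSTO1 (0.0383) and TNIP1 (0.0453). NR4A1, an immediate early nuclear receptor, was nearest to CD14 (0.0810), with 757 in fasting medium and 159 in control medium, followed by DDIT4 (0.1004) and ZC3H12A (0.119). These distances follow from the size of the difference between media and describe these 6 libraries. CD14 itself averaged 8.08 in fasting medium, under the limit of 10 set for the compared genes. The added count of 1 lowered its log2 fold change to 2.33, against 3.32 without it. Its nearest genes therefore depend on that added count.

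Neighbours on the chromosome were taken in RefSeq order, 10 on each side of each gene. Of the 80 neighbours, 37 of them protein-coding, 2 were listed, while 11.8% of all genes tested were listed. CXCL1, the fourth gene after CXCL8 on chromosome 4, was higher in fasting medium, as given above. SLC35A4, the seventh gene before CD14 on chromosome 5, was lower, with 898 ± 103 normalized counts in fasting medium and 1326 ± 111 in control medium (SD, n = 3 each; log2 fold change -0.56, limma adjusted p = 0.0119). The call for SLC35A4 was lost with relative log expression factors (edgeR adjusted p = 0.104) and without fasting replicate 1 or 2 or control replicate 1 or 3 (limma adjusted p = 0.05003 to 0.0705). No neighbour of PTGS2 on chromosome 1 or of LIF on chromosome 22 was listed. LIF lies next to the annotated antisense genes LIF-AS1 and LIF-AS2, and whether the counting used the strand is not given in the sources used here. In the domain annotation, 38 other listed genes shared the leucine-rich repeat superfamily term of CD14, 5 called higher and 31 lower. Of all listed genes 49.7% were called higher and 44.6% lower. No other listed gene shared the haem peroxidase terms of PTGS2.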

How the data were processed

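RNA-seq libraries from RKO cells in fasting medium (3) and control medium (3) were analysed. Each sample's own treatment label set its group, because the protocol text, the same in every sample, names low-serum medium only. Directional libraries were made from total RNA, per the labels' protocols. HTSeq 0.6.1, DESeq 1.10.1 and UMI-tools 1.0.0 were used, per the submitters' processing notes, which do not say for what. Which aligner, annotation and build were used is not given in the sources used here. The drug treatments named in the series' design text were not analysed here. The deposited columns hold normalized read counts, a signal equal to reads divided by a size factor per library. From the values, 100% were whole reads within 0.01 read, with size factors of 0.788, 0.956 and 0.727 (fasting) and 1.01, 1.41 and 1.38 (control). The deposited table also holds a log2 fold change, an adjusted p-value and a raw p-value per gene, as the authors computed them, and its highest adjusted p is 0.04999. Their p and adjusted p values together give 29845 genes tested. No sample column was left unused.

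The 4 genes, the gene lists and the tests were chosen with earlier results of these data known. The main test was limma 3.58.1 (R 4.3.3) with a mean-variance trend on log2(normalized count + 1). It was two-sided and took genes that averaged 1 or more in either medium. Benjamini-Hochberg adjustment by limma ran over 29845 genes, with the p of unlisted genes set to 1. All 4 genes passed this filter. Moderation was estimated on listed genes alone, which had been selected for their difference. Fold changes on this scale understate the change of low genes. As an alternative, edgeR 4.0.16 on the recovered reads, with the authors' size factors, called 1752 genes higher and 1607 lower. The other alternatives were DESeq2 1.42.0, other scalings, pseudocounts and filters, leaving out each library, a replicate block and correction for a transcript length trend. Exact intervals (95%) cover counting error only. The analysis was checked on simulated counts, in which most genes did not differ and no library stood apart. That check does not cover the selection of the listed genes or the deviation of fasting replicate 3.

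Besides the 4 genes, the text names up to 5 genes of each list, those of smallest adjusted p, up to 2 of the opposite direction, the 3 nearest patterns, listed neighbours, and 13 receptors, subunits and cytokines whatever their result. PTPRC, LYZ and CD68 were named after their absence was seen, and DUSP10, MAP3K5, TNFAIP3 and the other genes shared between lists after their values were seen. Symbols were matched to a gene names table for 3467 of 3511 identifiers, and transcript lengths (GENCODE 29) were found for 98.7%.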

Additional observations from a re-analysis of the deposited data

How the results depend on the processing

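No log2 fold change of the 4 genes and no call of the 65 pathway genes changed sign under any alternative. With total-read scaling 879 genes were called higher (1745 in the main analysis). With relative log expression factors 6 pathway genes were called lower (10 in the main analysis). PTGS2 had a log2 fold change of 4.62 with a pseudocount of 5 and 4.70 with total-read scaling. CXCL8 had 3.23 with a pseudocount of 5. LIF had 0.94 with relative log expression factors and 0.27 with total-read scaling. CD14 had 2.72 and 1.17 with pseudocounts of 0.5 and 5, 3.17 with edgeR and 3.35 with DESeq2 at the authors' size factors, and 3.15, 3.36 and 2.73 with trimmed mean, relative log expression and total-read scaling, and it was not fitted at a minimum mean of 10. The edgeR and DESeq2 values of CD14 lack the added count of 1, and from edgeR at the authors' size factors each scaling moved CD14 by about the shift of the median of all listed genes (-0.02, 0.20 and -0.47 with trimmed mean, relative log expression and total-read scaling). Leaving out 1 library gave 4.82 to 5.19 for PTGS2, 3.54 to 4.07 for CXCL8, 0.69 to 0.82 for LIF, 2.29 to 2.40 for CD14, 1464 to 1762 genes higher, 1160 to 1747 lower, and 47 to 55 pathway genes higher and 8 to 10 lower. The pathway calls lost numbered 10 without control replicate 1, 14 with total-read scaling, 4 with relative log expression factors and 0 without fasting replicate 3. Removal of the transcript length trend, chosen after seeing the data, lost none. A replicate block called 1715 genes higher and 1578 lower (54 and 10 pathway genes) and lost TNFAIP3. It left the 4 log2 fold changes at 5.05, 3.89, 0.75 and 2.33. Correlations of deviations between same-numbered samples were 0.03, 0.03 and 0.08. The deviation of fasting replicate 3 weighs on these correlations, so a pairing of the samples by number was neither shown nor excluded. Depth limits CD14 most, at 20 reads in fasting medium and 3 in control medium.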
